A study of Arabidopsis thaliana with 12 samples.

Results

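Seedlings of Arabidopsis thaliana that lack a working EIN2 were compared with the wild type after both had been given glucose. The comparison rests on 6 of the 12 RNA sequencing libraries of the series, 3 of the wild type accession Col-0 and 3 of ein2-5, a loss-of-function allele in the Col-0 background, and it was read across all 19522 genes of the deposited table. The seedlings of both genotypes were 4 days old, had been raised in liquid 1/2 MS medium lacking glucose under 12 h light and 12 h dark, and received 15 mM glucose for 2 h. The other 6 libraries, Col-0 and ein2-5 kept without glucose, served to ask whether a genotype difference was there before the sugar. The treatment label names glucose for all samples, so the groups follow the sample titles. Whole seedlings were used. Separate cultures are not stated for the 3 libraries per group, so p-values measure the spread between libraries, which may be technical.

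Ethylene is a gaseous plant hormone. Its receptors sit in the membrane of the endoplasmic reticulum and keep the kinase CTR1 active, and CTR1 holds EIN2 in check; once ethylene binds, EIN2 is released and its C-terminal part lets the transcription factors EIN3 and EIL1 accumulate. Glucose signalling meets this pathway at several points, and sugar and ethylene are known to act against each other in seedlings, so ein2 mutants are a standard material for asking how a seedling reads sugar when the ethylene signal is cut.

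With glucose, ein2-5 differed from Col-0 in 4 broad ways. Targets of ethylene signalling were low. Seed storage, late embryo and oil mobilisation genes were high, to very unequal extents in the 3 mutant libraries. RNA of the late anthocyanin genes LDOX, DFR, UF3GT, UGT75C1 and TT19 was 10 to 26 times as abundant as in the wild type. Genes of dividing cells were high, in equal measure in every mutant library. Across all genes 5100 were higher in ein2-5 (26.1% of those tested) and 4080 lower (20.9%), 47.0% in either direction, at an adjusted p under 0.05 in limma, of which 1166 (5.97%) and 652 (3.34%) differed at least 2-fold. Counts over a list below are read against these shares. The 3 ein2-5 and 3 Col-0 libraries did not overlap for 5799 of the 19522 genes in the upward direction and 4888 in the downward. A lack of overlap in a single gene was therefore common. Differences are given as log2 differences ± SE, ein2-5 minus Col-0, of log2(CPM + 1), where CPM is reads per 1000000; the added 1 shrinks the differences of weakly expressed genes. The median over all genes was 0.02.

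The 6 libraries held 11470134 to 16800778 reads, and 3 reads, the floor used here, corresponded to 0.179 to 0.262 CPM. Within Col-0 +Glc the libraries correlated at r = 0.9864 to 0.9928 across genes, and within ein2-5 +Glc at 0.9688 to 0.9909. The ein2-5 +Glc libraries 2 and 3 stood apart from library 1. Their reads of the 17 measured seed storage and late embryo genes summed to 2539 and 3890 CPM, against 187 CPM in library 1. The sums were 3.21 to 4.85 CPM in the Col-0 +Glc libraries and 930 to 1585 CPM in ein2-5 without glucose. Library 1 was thus the lowest of all ein2-5 libraries, and seed-rich below means only richer than library 1. The mitochondrial share of reads was 0.600%, 2.07% and 3.86% in ein2-5 +Glc 1, 2 and 3. It was 0.346%, 0.695% and 1.10% in Col-0 +Glc 1, 2 and 3, so it rose with the replicate number in both groups. Results are therefore also given without the seed-rich libraries 2 and 3, a fit in which the lone ein2-5 +Glc library is assumed to vary like the other groups; it called 2884 genes higher (14.8%) and 1611 lower (8.25%).

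**Figure D1:**
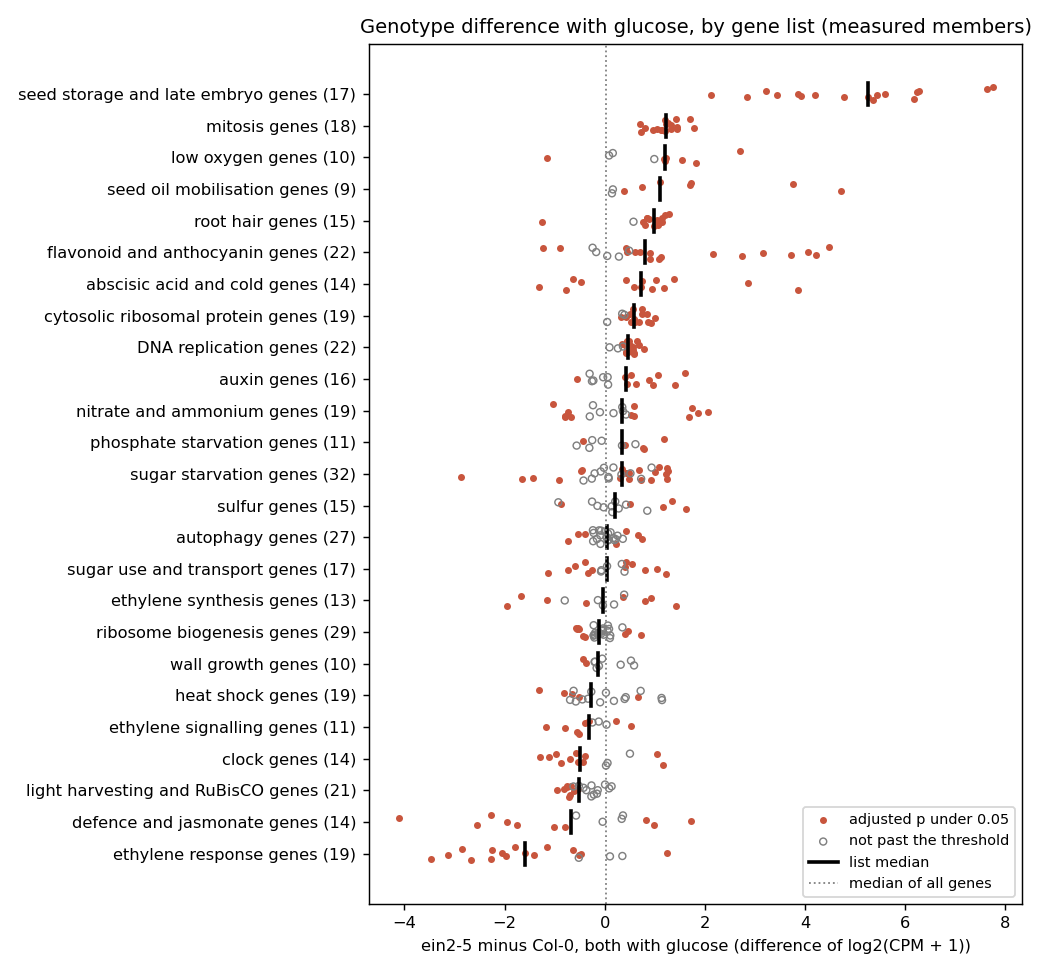
Log2 difference between ein2-5 and Col-0, both with glucose, for each measured member of 25 gene lists (number of members in brackets), on the log2(CPM + 1) scale. Filled points passed the limma threshold, open points did not, black bars are list medians and the dotted line is the median of all genes; the seed storage list lies furthest right and the ethylene response list furthest left.

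EIN2 itself (AT5G03280; TAIR10.1 chromosome 5, 787428 to 793404) checks the labels. It stood at 116, 118 and 105 CPM in the Col-0 +Glc libraries and at 50.3, 49.0 and 48.5 CPM in the ein2-5 +Glc libraries, so that the groups did not overlap and each library followed its label. The difference was −1.18 ± 0.107 (limma adjusted p = 3.44e-06).

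The ethylene response genes, which EIN3 and EIL1 switch on, were the most uniformly low list. Of 19 measured members 15 were lower in ein2-5, 1 was higher and 3 did not pass, with a median of −1.59; without the seed-rich libraries 12 were lower and 1 higher. The receptor gene ETR2 (AT3G23150), the growth regulator ARGOS (AT3G59900), which dampens the ethylene response, and its relative ARL led the list. The higher member was EBF1, whose F-box protein marks EIN3 for destruction.

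ETR2 was at 73.2, 53.3 and 48.8 CPM in Col-0 +Glc and at 2.51, 5.45 and 5.49 CPM in ein2-5 +Glc, 13.0 times as much in the wild type. All 3 mutant libraries lay far below all wild type ones, and the difference was −3.47 ± 0.247 (limma adjusted p = 5.88e-07). ARGOS was at 15.0, 14.1 and 13.4 CPM in Col-0 +Glc and at 0.797, 1.13 and 1.39 CPM in ein2-5 +Glc. Its libraries agreed closely within each genotype, and it fell by 2.86 on the log2 scale (SE 0.172, limma adjusted p = 1.90e-07).

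The promoters of these genes are shown because EIN3 is known to bind short sites in the promoters of its targets. The 250 bases before the annotated start of each gene, from the RefSeq genome TAIR10.1 and written 5′ to 3′ on the strand of the gene, carry in capitals the letters ATGTA, a form of the core of the EIN3 site, searched on both strands. The window is chr3:8254309-8254558 (plus strand) for ETR2 and chr3:22129255-22129504 (plus strand) for ARGOS.
ETR2: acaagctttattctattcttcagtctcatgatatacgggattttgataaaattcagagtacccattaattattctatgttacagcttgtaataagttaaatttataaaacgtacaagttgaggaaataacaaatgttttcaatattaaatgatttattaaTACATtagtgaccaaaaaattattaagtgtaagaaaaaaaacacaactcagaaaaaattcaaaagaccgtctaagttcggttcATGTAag
ARGOS: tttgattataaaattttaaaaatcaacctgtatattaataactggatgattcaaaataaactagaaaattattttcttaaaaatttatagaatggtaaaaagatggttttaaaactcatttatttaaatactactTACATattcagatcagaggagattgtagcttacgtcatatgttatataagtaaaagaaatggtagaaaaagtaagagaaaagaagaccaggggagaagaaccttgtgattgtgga
ETR2 has 2 matches and ARGOS has 1. Such a short motif is common: 10 of the 19 measured ethylene response genes hold it in this window, against 51.9% of the windows of 19351 measured nuclear genes, so its presence alone does not set the list apart.

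Other receptors and feedback genes were low as well. ERS1 and ERS2, which encode ethylene receptors, had differences of −1.16 and −1.98, and ARL, at 25.2, 26.3 and 37.6 CPM against 0.920, 4.01 and 3.31 CPM, one of −3.13. EBF2, the second F-box gene of EIN3 turnover, fell by 1.79, whereas EBF1 rose by 1.24, from 79.3, 85.4 and 95.4 CPM in Col-0 +Glc to 196, 205 and 214 CPM in ein2-5 +Glc. These paralogs thus moved in opposite directions in every library.

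Transcription factors downstream of EIN3 followed. RAV2, TEM1 and RAV1, of the RAV family of DNA-binding proteins, had differences of −2.67, −2.06 and −1.59, and the ethylene response factor ERF2 one of −2.25. Limma adjusted p for all ethylene genes given so far was at or below 3.18e-05.

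**Figure D2:**
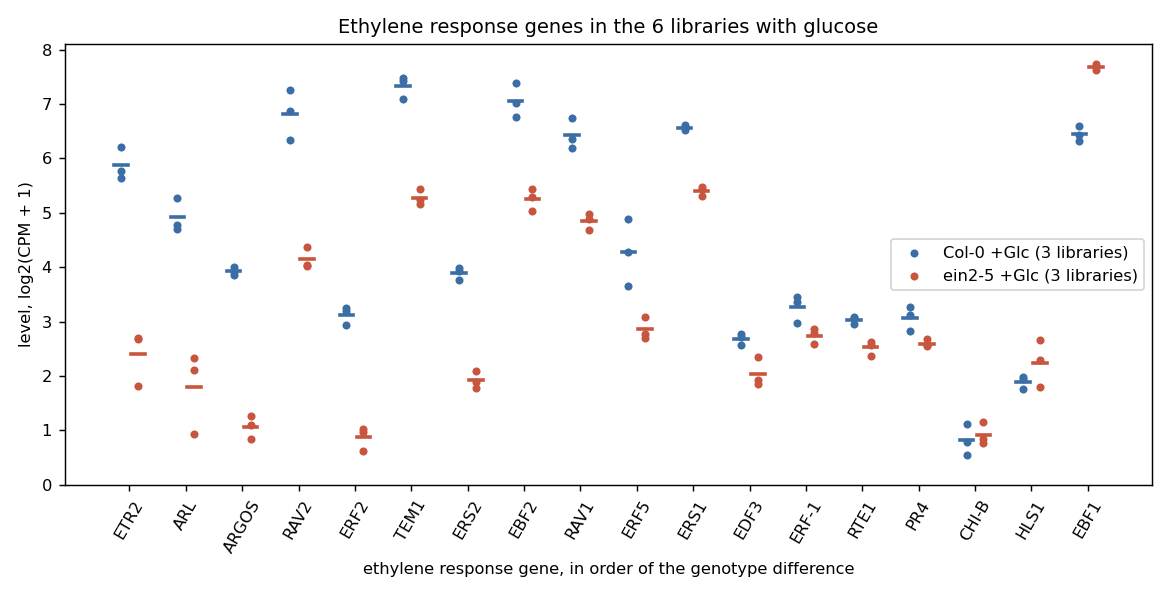
Level of 18 of the 19 measured ethylene response genes in the 3 Col-0 +Glc (blue) and 3 ein2-5 +Glc (red) libraries, as log2(CPM + 1), ordered by the genotype difference; bars are means over 3 libraries. From ETR2 at the left to PR4 the red means lie below the blue ones, CHI-B and HLS1 overlap, and EBF1 at the right has them above.

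The signalling components upstream were less affected. Of 11 measured members, EIN2 included, 6 were lower and 2 higher, with a median of −0.32, and 3 and 0 without the seed-rich libraries. No member was higher without Col-0 +Glc 2 or ein2-5 +Glc 3, and 1 was without ein2-5 +Glc 2. The kinase gene CTR1 had a difference of −0.54 and the transcription factor gene EIL1 one of −0.79, whereas EIN3, at 105, 101 and 103 CPM against 94.8, 96.5 and 92.8 CPM, gave −0.12 ± 0.0895 and did not pass (limma adjusted p = 0.289). The receptor genes split, ETR1 at −0.39 and EIN4 at 0.23, the latter call being lost without Col-0 +Glc 2 (adjusted p = 0.110) or ein2-5 +Glc 2 (0.0791) or 3 (0.100). Of 13 measured ethylene synthesis genes 4 were higher and 4 lower. ACO4, an ACC oxidase gene of the last step, fell by 1.66 and ACS7, which makes the precursor ACC, by 1.94, from 59.3, 59.4 and 61.4 CPM to 11.4, 18.5 and 15.5 CPM, while the oxidase gene ACO1 rose by 1.42.

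The largest fall of any gene was in AT2G36690, annotated as an oxygenase that depends on 2-oxoglutarate and iron. It carries no symbol and was singled out after its values were seen. It stood at 286, 246 and 280.5 CPM in Col-0 +Glc and at 5.52, 7.42 and 4.10 CPM in ein2-5 +Glc, a difference of −5.37 ± 0.147 (limma adjusted p = 3.09e-10). Next came AZI1 (AT4G12470), a lipid transfer protein of systemic immunity, at 337, 307 and 324 CPM against 22.3, 13.0 and 11.6 CPM, 20.6 times as much in the wild type. Neither gene had overlapping libraries.

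AZI1 lies in a run of lipid transfer protein genes on chromosome 4 (7401087 to 7439805), 7 of them measured, that did not move as a block. AZI1, its neighbour EARLI1 (−4.30 ± 0.234) and AT4G12490 (−1.17 ± 0.189) were lower in ein2-5. AT4G12510, AT4G12520, AT4G12545 and the auxin-induced AIR1 were higher, by 3.07, 2.42, 3.36 and 2.96. AIR1 was at 6.90, 5.14 and 2.34 CPM in Col-0 +Glc and at 57.5, 37.7 and 32.8 CPM in ein2-5 +Glc, with no overlap. Copies in this run are close in sequence, and reads shared between them could have been split or dropped by the counting.

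The 15 largest falls among genes with a symbol, AZI1 and EARLI1 included, lay between −4.33 and −2.86, with limma adjusted p between 1.65e-08 and 5.51e-06, and all 15 also passed without the seed-rich libraries. FRK1, the receptor-like kinase gene induced by flagellin, was at 29.8, 14.9 and 23.3 CPM in Col-0 +Glc and at 0.368, 0.681 and 0 CPM in ein2-5 +Glc (−4.11 ± 0.225). IOS1, a leucine-rich repeat kinase gene of the immune response, was at 231, 166 and 204 CPM against 24.4, 19.2 and 16.3 CPM, and the S-locus type kinase gene RK3 had a difference of −2.94. BEE3, a growth transcription factor gene induced by brassinosteroid, PLA2A, a patatin-like lipase gene, WRKY49 and the peptide transporter gene PTR3 had differences of −3.50, −3.47, −3.19 and −2.97. The list of defence and jasmonate genes had 7 of 14 measured members lower and 3 higher. FLS2, the flagellin receptor gene, fell by 2.55, and the transcription factor genes WRKY53, WRKY40 and WRKY33 by 2.28, 1.95 and 1.74, with WRKY33 at −1.83 but not past the threshold without the seed-rich libraries (adjusted p = 0.107). The higher members included the jasmonate-responsive genes VSP2, at 0, 0 and 0.200 CPM against 2.09, 3.03 and 2.44 CPM, and LOX2.

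Cysteine-rich receptor-like kinases, a family of surface kinases with paired cysteine motifs, supplied 3 of the 15 largest falls, which led to the whole family being read after those values were seen. Of 24 measured members 18 were lower, 1 was higher (CRK26, 0.83) and 5 did not pass, with a median of −1.49; 17 were lower and 2 higher without the seed-rich libraries. A run of 12 measured members on chromosome 4 between 12117491 and 12184774 held 11 of the lower ones. In it, CRK13 was at 16.0, 10.1 and 14.3 CPM against 0.981, 0.984 and 0.174 CPM, and CRK18 at 33.2, 28.3 and 34.1 CPM against 3.93, 4.69 and 2.27 CPM. The groups of both genes lay far apart. CRK12 and CRK11 had differences of −2.87 and −2.80, and EMB1290, in the same run, one of −0.05 ± 0.165 that did not pass (limma adjusted p = 0.810). Neighbouring copies of this family resemble each other, so the split of reads between them is uncertain.

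**Figure D3:**
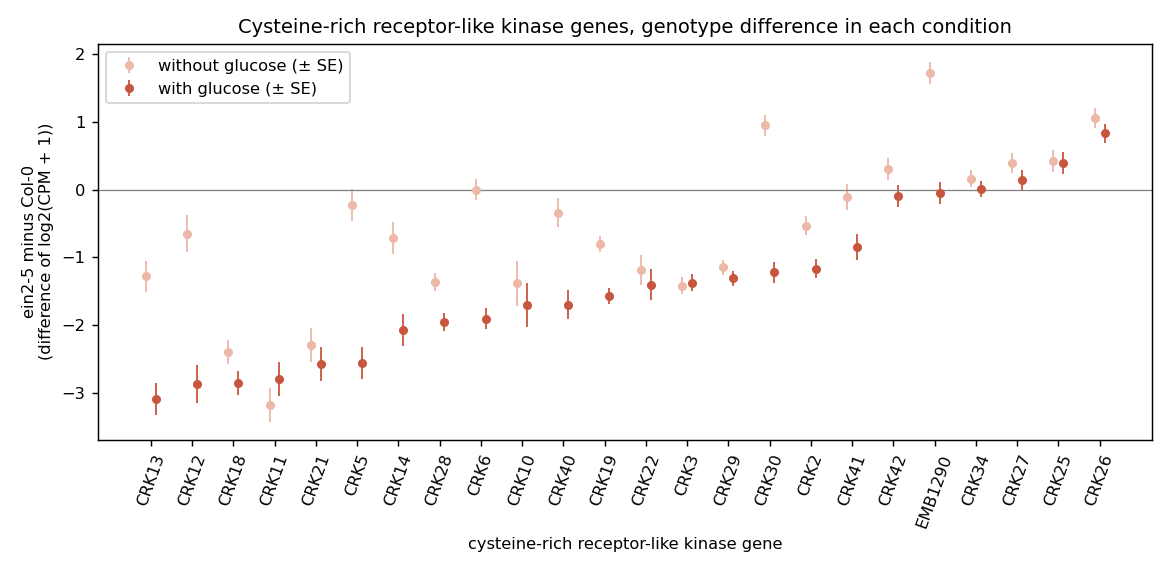
Genotype difference, ein2-5 minus Col-0, of 24 cysteine-rich receptor-like kinase genes with glucose (dark) and without (light), as log2(CPM + 1) differences with SE from limma. With glucose most points lie below 0; CRK5, CRK6 and CRK30 lie near or above 0 without glucose and between −2.56 and −1.22 with it.

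Seed storage and late embryo genes led the largest rises. Storage proteins, oil body proteins and dehydrins are laid down in the maturing seed and are broken down as a seedling establishes. All 17 measured seed storage and late embryo genes were higher in ein2-5, by a median of 5.25, and 11 of them passed without the seed-rich libraries. In whole seedlings more cells of a kind and more RNA per cell cannot be told apart.

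CRA1 (AT5G44120), a cruciferin storage globulin gene, was at 0.476, 0.869 and 0.735 CPM in Col-0 +Glc and at 46.2, 909 and 1099 CPM in ein2-5 +Glc. Even its lowest mutant library exceeded every wild type one, but the mutant libraries differed more than 20-fold among themselves. The difference was 7.75 ± 1.20 (limma adjusted p = 0.000224), 9.21 without ein2-5 +Glc 1 and 4.81 without libraries 2 and 3. The napin type albumin gene SESA5 (AT5G54740) was at 0.119, 0.362 and 0.267 CPM against 17.6, 145 and 326 CPM. SESA2 had no read in any Col-0 +Glc library and 8.46, 153 and 289 CPM in ein2-5 +Glc. The ein2-5 +Glc mean of 150 CPM was at least 756-fold higher when 3 reads per library are taken as the floor. Library 1 lay far below that mean. Albumin gene copies are near-identical, and reads may be shared among them.

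The same order of the 3 mutant libraries was seen in other rises. M17, a late embryo gene, was at 20.1, 399 and 650.4 CPM in ein2-5 +Glc, the oleosin gene OLEO2 at 11.3, 74.1 and 148 CPM, the dehydrin gene RAB18 at 26.5, 206 and 264 CPM, and the defensin gene LCR67 at 14.2, 189 and 480.3 CPM, and none exceeded 1.30 CPM in a Col-0 +Glc library. Without ein2-5 +Glc 1 their differences were larger, up to 8.55 for M17 and 7.30 for LCR67. All 15 of the largest rises, from 4.87 to 7.75, were higher in both libraries 2 and 3 than in library 1. Limma adjusted p lay between 5.00e-05 and 0.00102, and 14 of the 15 passed without libraries 2 and 3, at 2.50 to 4.81 over all 15, SESA3 being the exception (adjusted p = 0.0817).

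Promoter windows of CRA1 (chr5:17758337-17758586, minus strand) and SESA5 (chr5:22239188-22239437, minus strand), read as above, carry in capitals the letters CATGCA on either strand, the RY element known from seed storage promoters as the site of the B3 regulators of seed maturation.
CRA1: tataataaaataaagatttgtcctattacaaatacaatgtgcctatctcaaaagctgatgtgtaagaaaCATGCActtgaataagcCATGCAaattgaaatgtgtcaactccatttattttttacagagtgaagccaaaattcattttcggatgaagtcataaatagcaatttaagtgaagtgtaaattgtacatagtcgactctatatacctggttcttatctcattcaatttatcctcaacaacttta
SESA5: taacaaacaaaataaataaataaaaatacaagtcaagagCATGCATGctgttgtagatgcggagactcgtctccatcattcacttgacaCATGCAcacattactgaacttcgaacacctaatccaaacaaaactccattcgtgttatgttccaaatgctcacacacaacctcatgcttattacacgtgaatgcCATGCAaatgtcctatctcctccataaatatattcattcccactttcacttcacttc
CRA1 has 2 matches and SESA5 has 4, of which a pair overlaps. Of the 17 measured seed storage and late embryo genes 11 hold the letters in this window, against 7.64% of all windows.

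Genes that turn seed oil into sugar were high too, and here the wild type had clear levels. Of 9 measured members 7 were higher and 2 did not pass, with a median of 1.11 (5 higher without the seed-rich libraries). The glyoxylate cycle gene MLS, malate synthase, was at 16.8, 15.8 and 12.5 CPM in Col-0 +Glc and at 217, 648 and 522 CPM in ein2-5 +Glc, a difference of 4.72 ± 0.404 (limma adjusted p = 2.22e-06). ICL, isocitrate lyase of the same cycle, was at 121, 138 and 90.7 CPM against 760.2, 2585 and 1929 CPM. Again library 1 was the lowest of the mutant libraries, yet above all of the wild type. PCK1, which starts gluconeogenesis, KAT2 of peroxisomal fatty acid breakdown and the oil body lipase gene SDP1 rose by 1.72, 1.71 and 1.11. Abscisic acid and cold genes had 10 of 14 measured members higher and 4 lower (6 and 2 without the seed-rich libraries, 2 lower without Col-0 +Glc 1). RD29B rose by 3.86 (4.54 without ein2-5 +Glc 1) and KIN1 by 2.86, the seed regulator ABI5 by 1.17 (0.18 without the seed-rich libraries, adjusted p = 0.620), and ABI1, a phosphatase that blocks the hormone's signal, fell by 1.30, from 136, 138 and 146 CPM to 59.4, 58.0 and 51.4 CPM. Low oxygen genes had 6 of 10 higher and 1 lower, but only 1 and 1 without the seed-rich libraries. PCO1 was at 4.05, 21.9 and 21.0 CPM and ADH1 at 10.5, 34.4 and 27.5 CPM in ein2-5 +Glc, against at most 2.47 and 9.64 CPM in Col-0 +Glc.

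**Figure D4:**
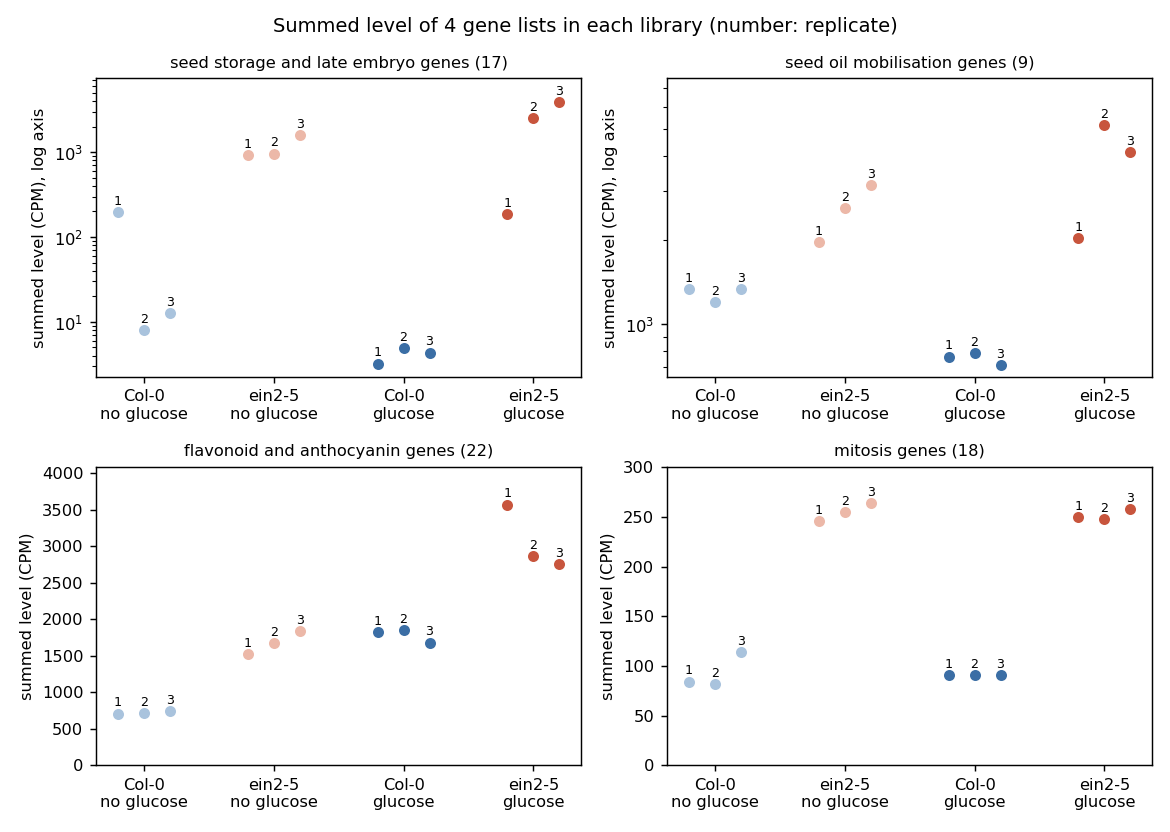
Summed level of the measured members of 4 lists in each of the 12 libraries, in CPM (log axis for the upper pair of panels), with the replicate number at each point. Seed storage genes rise from 3.21 to 4.85 CPM in Col-0 with glucose to 187, 2539 and 3890 CPM in ein2-5, whereas mitosis genes lie at 248 to 258 CPM in all 3 ein2-5 libraries with glucose.

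Late anthocyanin genes were among the largest rises that did not follow the seed genes. Of 22 measured flavonoid and anthocyanin genes 15 were higher, 2 lower and 5 not past the threshold, with a median of 0.80, and the counts were 15 and 1 without the seed-rich libraries. The lower count was also 1 without Col-0 +Glc 1, Col-0 +Glc 2 or ein2-5 +Glc 3. The late steps led. LDOX (AT4G22880), which forms the coloured anthocyanidin, was at 3.87, 5.14 and 7.02 CPM in Col-0 +Glc and at 166, 117 and 135 CPM in ein2-5 +Glc, 26.1 times as much (4.49 ± 0.448, limma adjusted p = 7.53e-06). DFR, the step before it, was at 4.05, 5.93 and 8.15 CPM against 168, 102 and 116 CPM. In both genes library 1, the poorest in seed reads, was the highest of the mutant libraries.

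Genes whose products decorate and store the pigment behaved alike. The glycosyltransferase genes UF3GT and UGT75C1 rose by 4.06 and 3.72, the malonyltransferase gene AT5MAT by 3.69, and TT19, whose glutathione S-transferase carries the pigment to the vacuole, by 3.17. TT7, the flavonoid 3′-hydroxylase gene, was at 22.7, 20.9 and 23.8 CPM against 143, 157 and 165 CPM. The early enzyme gene TT4, chalcone synthase, which flavonols need as well, rose by 0.91. Of the regulators, PAP1, a MYB activator, was at 5.77, 7.24 and 4.08 CPM against 43.1, 25.4 and 21.0 CPM (2.17 ± 0.223), and the repressor gene MYBL2 fell by 1.23.

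A search for rises that were even across the mutant, with the highest ein2-5 +Glc library under 2 times the lowest, was made after the seed reads had been seen. It kept 1816 of the genes that passed the conditions for naming. The 10 largest had differences from 2.70 to 4.49. Besides LDOX, DFR, UF3GT, AT5MAT, TT19, TT7 and AIR1 they were the nicotianamine synthase gene NAS1 (2.87), the arabinogalactan protein gene AGP30 (2.70) and the jacalin lectin gene JAL22, at 24.6, 20.8 and 20.2 CPM against 178, 141 and 127 CPM. Outside that set, CYP79B2 and CYP83B1, on the path from tryptophan to indole glucosinolates, were also even: CYP79B2 was at 6.43, 5.79 and 3.27 CPM against 34.0, 33.9 and 33.0 CPM, and CYP83B1 rose by 2.21.

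Cell division genes gave the tightest rise. All 18 measured mitosis genes were higher, by 0.69 to 1.78 with a median of 1.21, and 17 passed without the seed-rich libraries. The summed level of the list was 91.1, 91.1 and 90.7 CPM in Col-0 +Glc and 249.9, 248 and 258 CPM in ein2-5 +Glc. SYP111, the syntaxin of the cell plate, was at 9.70, 9.34 and 8.49 CPM against 34.4, 31.9 and 35.6 CPM, the anaphase activator gene CDC20.1 rose by 1.69 and the mitotic cyclin gene CYCB1.2 by 1.44. DNA replication genes were higher in 19 of 22 cases with smaller differences (median 0.46), led by TSO2 of nucleotide reduction at 0.77 and followed by the clamp gene PCNA2 at 0.68, and 4 of 22 passed without the seed-rich libraries, where the median was 0.42. Ribosomal protein genes of the cytosol were higher in 16 of 19 cases (median 0.58, 9 without those libraries), RPL28A by 0.99.

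Markers of plant parts also differed. Root hair genes were higher in 13 of 15 cases and lower in 1 (7 and 1 without the seed-rich libraries), with a median of 0.98. The regulators GL2 and RHD6 rose by 1.29 and 1.20, and the exception was PRP1, at 11.2, 12.8 and 5.68 CPM against 1.47, 3.78 and 5.93 CPM, where the groups overlap. Auxin genes were higher in 9 of 16 cases and lower in 1 (2 without ein2-5 +Glc 1), with the conjugating enzyme gene GH3.3 up by 1.59. Light harvesting and RuBisCO genes were lower in 9 of 21 cases and higher in none, with a median of −0.52, but none was lower and 1 higher without the seed-rich libraries, and leaving out single libraries moved the lower count to 5 (Col-0 +Glc 1 or ein2-5 +Glc 2) or 14 (ein2-5 +Glc 1). LHB1B2 and LHCB4.1 had differences of −0.95 and −0.81; the LHB1B copies are near-identical. Of 10 wall growth genes 2 were lower, the cellulose synthesis genes CESA6 (−0.44) and KOR1 (−0.38), and 8 did not pass. That share lower was near the 20.9% of all genes, and 2 members were higher without ein2-5 +Glc 1.

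Clock genes were lower in 9 of 14 cases and higher in 2. The genes of the evening, TOC1, ELF4 and FKF1, had differences of −0.98, −1.11 and −1.29, and the morning genes LHY and RVE8 rose by 1.17 and 1.05. Without the seed-rich libraries 3 were lower and 2 higher, and 5 were lower without Col-0 +Glc 1 or ein2-5 +Glc 3. Whether all libraries were collected at the same hour is not given in the labels.

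Carbon and nutrient genes were mixed. Sugar starvation genes, which the kinase SnRK1 turns on when carbon is short, had 14 of 32 measured members higher and 6 lower, with a median of 0.34 (8 and 4 without the seed-rich libraries). ASN1, asparagine synthetase, fell by 2.87, the threonine aldolase gene THA1 by 1.65 and the branched-chain aminotransferase gene BCAT-2 by 1.42, whereas EXL2 and TPS9 rose by 1.27 and 1.24. Of 17 genes of sugar use and transport 6 were higher and 6 lower. The starch synthesis gene APL3 rose by 1.23, and the sucrose transporter gene SUC1, at 467, 412 and 392 CPM against 218, 211 and 155 CPM, fell by 1.13. Autophagy genes had 4 of 27 higher and 3 lower, shares below the 26.1% and 20.9% of all genes. ATG8H was at 0.75 and ATG8B at −0.73, and 1 member was lower without ein2-5 +Glc 3.

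Nitrate and ammonium genes had 7 of 19 measured members higher and 5 lower. The nitrate reductase gene NIA1 was at 24.5, 31.0 and 55.3 CPM in Col-0 +Glc and at 118, 162 and 170.1 CPM in ein2-5 +Glc, and NIA2 at 46.2, 62.5 and 90.5 CPM against 217, 195 and 241 CPM. Neither overlapped between genotypes. The nitrate-responsive repressor gene HHO1 rose by 1.87, and GLU1, ferredoxin glutamate synthase, fell by 1.04. The high-affinity nitrate transporter family split: NRT2.1 was at 6.67, 7.53 and 7.35 CPM against 27.7, 26.5 and 22.3 CPM, whereas NRT2.5 was at 7.32, 5.93 and 7.02 CPM against 0.245, 0.227 and 0 CPM, NRT2.6 had a difference of −2.49 and NRT2.3 of −1.19. Sulfur genes were higher in 4 of 15 cases and lower in 1, led by SDI1 at 1.62 (3 lower without ein2-5 +Glc 2 and 2 without Col-0 +Glc 3), a share higher that is near the 26.1% of all genes. Phosphate starvation genes were higher in 4 of 11 cases and lower in 1 (2 without Col-0 +Glc 3, 0 without the seed-rich libraries), led by PHO1.H1 at 1.18. Heat shock genes were lower in 4 of 19 cases, a share near the 20.9% of all genes, and higher in 1. The lower count was 0 to 7 when single libraries were left out, none being lower without ein2-5 +Glc 3. HSFA2 fell by 1.30, a call lost without Col-0 +Glc 3 (limma adjusted p = 0.0713) or ein2-5 +Glc 3 (0.0652). Ribosome biogenesis genes passed in 9 of 29 cases, 3 higher and 6 lower, with NRPA1 at −0.57 and OLI2 at −0.52. The share lower was near the 20.9% of all genes and the share higher was below their 26.1%. In this list 1 was higher when any 1 of the Col-0 +Glc libraries was left out and none without ein2-5 +Glc 2 or 3. FIB2 had a difference of 0.72, not past the threshold without ein2-5 +Glc 2 (limma adjusted p = 0.0607) or 3 (0.0658).

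The next comparison asked which of these differences came with the sugar. Without glucose, in 6 libraries that share none with the comparison above, 6887 genes were higher in ein2-5 (35.3%) and 3121 lower (16.0%). The surplus of higher genes there depended on scaling. Higher genes made up 68.8% of those past the threshold in the deposited values, but 49.1% once TMM scaling was applied. The median of all genes without glucose moved from 0.15 to −0.003. The shares given next use the deposited values and carry the same limit. Of the genes higher with glucose, 3770 were also higher without it, 73.9% of the first list and 54.7% of the second, and of those lower with glucose 1694 were also lower without, 41.5% and 54.3%. Opposite calls were rare, with 348 genes lower with glucose and higher without, and 183 the reverse. The difference of the differences passed in limma for 1072 genes in the upward direction (5.49%) and 2606 in the downward direction (13.3%). That split rested on scaling: the median of all genes was −0.11 as deposited and 0.02 after TMM scaling, 29.1% of the calls were upward as deposited and 51.1% after TMM, when 1873 were upward and 1794 downward.

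Seed, mitosis and anthocyanin genes were high in both conditions. None of the 17 seed storage genes passed the test of a difference between conditions, where their median was 1.02. The libraries were too uneven for that test to tell: CRA1 gave 2.21 ± 1.70 and did not pass. Of the 18 mitosis genes 1 passed, downward. Of the 22 flavonoid and anthocyanin genes 8 passed downward and 1 upward, LDOX, DFR, UF3GT, UGT75C1 and TT19 not among them. Seed oil genes passed upward in 5 of 9 cases, with a median of 1.09, and DNA replication genes downward in 10 of 22, with a median of −0.58. Without glucose the summed seed storage level was 929.8 to 1585 CPM in ein2-5, and 195, 7.96 and 12.7 CPM in Col-0, where library 1 stood apart. The ethylene response list had 15 of 19 members lower in each condition, with 4 upward and 2 downward differences between conditions; ERS1 and ERS2 were less low with glucose, by 0.92 and 0.72, and ERF2 and RAV1 lower, by −1.57 and −0.91.

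Sugar starvation and ribosome biogenesis genes had the largest shares of members past that test among the 25 lists. Without glucose 27 of 32 starvation genes were lower in ein2-5 and none higher, and the difference passed upward for 25, with a median of 1.66. Without glucose all 29 ribosome biogenesis genes were higher, and the difference passed downward for 28, with a median of −0.97. Both medians lie well beyond that of all genes under either scaling. With glucose, as given above, members of both lists were called in either direction, at medians of 0.34 and −0.11.

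**Figure D5:**
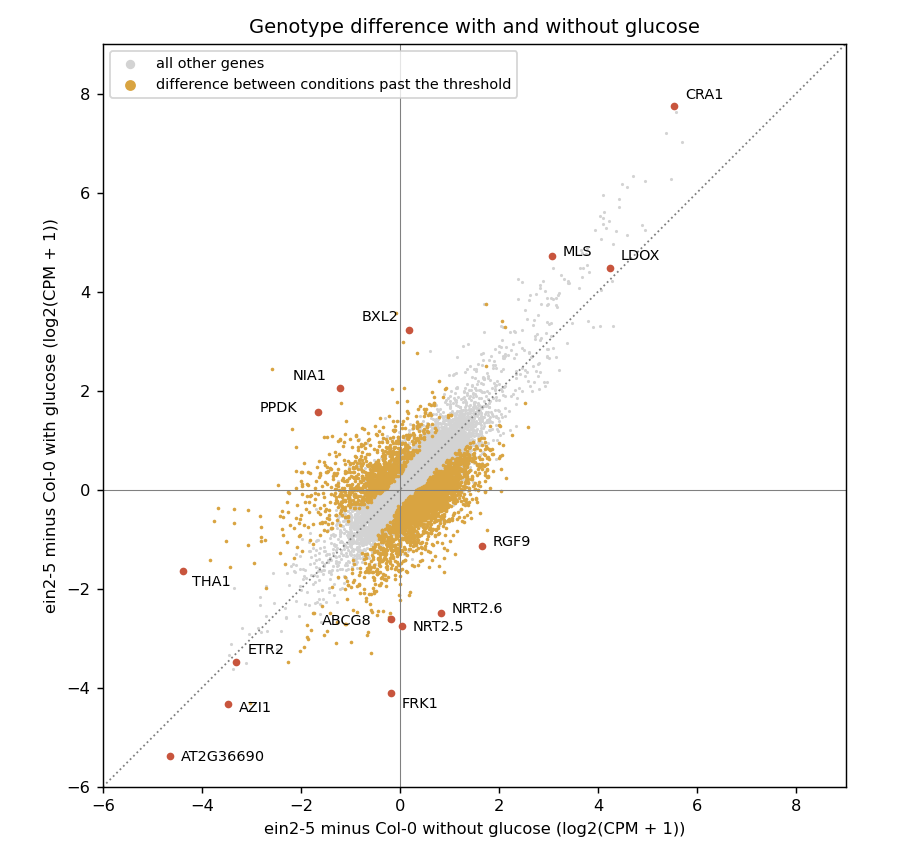
Genotype difference of each gene without glucose (horizontal) and with glucose (vertical), both as ein2-5 minus Col-0 on the log2(CPM + 1) scale. Red points are labelled genes, orange genes differ between conditions at a limma adjusted p under 0.05 and the dotted line marks equal differences; CRA1, LDOX, ETR2 and AZI1 lie in the same direction in both conditions, while NIA1 and PPDK, lower without glucose, are higher with it.

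Several genes turned round. NIA1 was 2017 ± 52.6 CPM in Col-0 and 892 ± 241 CPM in ein2-5 without glucose (SD, n = 3 in each group) but 36.9 ± 16.3 and 150.3 ± 27.9 CPM with it, so that the order of the genotypes reversed; the difference of the differences was 3.27 (limma adjusted p = 0.000105). NIA2 gave 2.94, PPDK, which makes phosphoenolpyruvate from pyruvate, 3.23, and the vacuolar malate transporter gene TDT 2.47. RGF9, a root growth peptide gene, turned the other way, from 1.66 without glucose to −1.15 with it, although −1.15 did not pass without the seed-rich libraries (adjusted p = 0.255). The wall xylosidase gene BXL2 differed by 3.22 with glucose (3.86 without ein2-5 +Glc 1) and by 0.18 without.

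Of the 15 largest falls, FRK1 and CRK12 were not past the threshold without glucose. FRK1 was 0.162 ± 0.0167 CPM in Col-0 and 0.0253 ± 0.0439 CPM in ein2-5 without glucose, against 22.7 ± 7.45 and 0.350 ± 0.341 CPM with it. Its levels without glucose were at or under the floor of 3 reads in all 6 libraries, so a fall could not have been detected there. The transporter gene ABCG8 was 1.84 ± 0.249 and 1.50 ± 0.381 CPM without glucose and 45.4 ± 0.741 and 6.58 ± 0.583 CPM with it. NRT2.5 and NRT2.6 differed between conditions by −2.78 and −3.31. The other 13 were also lower without glucose, and for 9 of the 15 the fall was larger with it by the test of the difference, among them PLA2A, IOS1, RK3 and CRK13. In the chromosome 4 run of receptor-like kinases 7 of 12 members had a downward difference. CRK5 and CRK6 had −0.23 and 0.00 without glucose and −2.56 and −1.91 with it, and CRK30, which lies elsewhere on chromosome 4, went from 0.95 to −1.22.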

How the data were processed

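Reads were aligned with TopHat to TAIR10 and counted with HTSeq, per the submitters' processing notes, with no versions or strand setting. The deposited values are CPM, a unit read from the values: each column sums to 1000000, and 100% of values were whole multiples of 1 read within 0.01 reads, so reads could be recovered. No value column was left unused. Genes were joined by locus code to RefSeq TAIR10.1 (19352 matched, 170 not). edgeR had been planned for counts; because the table holds CPM, limma-trend 3.58.1 (R 4.3.3) was fitted to log2(CPM + 1) over 12 libraries with a mean per group and 8 residual degrees of freedom, with Benjamini-Hochberg adjustment over 19522 genes and no filter. The fit was tested on simulated data with 200 changed genes, far fewer than were called here. The simulation held no seed-rich libraries, so it does not speak to their effect.

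Genes were named by rule: the 15 largest rises and 15 largest falls past the threshold with a symbol, no overlap of libraries and a mean of 5 CPM or more where higher; EIN2; up to 5 members per list; the 5 largest differences between conditions per direction; and up to 5 genes called in opposite directions. Further ethylene, defence and flavonoid list members, AT2G36690, the NRT2, lipid transfer and cysteine-rich kinase genes, the glucosinolate genes and the even rises were chosen after their values were seen. Some genes that the rule names are not reported here. The comparison and the 25 lists (475 loci, 433 measured) were chosen with earlier results of these data known. Sequences come from the TAIR10.1 genome. Alternatives tried were pseudocounts, a filter, TMM, edgeR 4.0.16 and DESeq2 1.42.0 on recovered reads, the 6 glucose libraries alone, a replicate block, nuclear genes alone and libraries left out. Replicate numbers of the 2 groups with glucose did not deviate together in every pair (r = 0.283, −0.0096 and 0.311) and were not used as pairs.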

Additional observations from a re-analysis of the deposited data

Results flagged for a closer look

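The genotype difference itself differed between seedlings with and without glucose, by limma's test of the difference of the differences, for 1072 genes upward and 2606 downward. Values below are the log2 difference with glucose minus that without. The added 1 shrinks a difference more where levels are near the floor, as for NRT2.1 and FRK1 without glucose. NRT2.1 was then at 0.143 to 0.286 CPM in Col-0 and at 0.532 to 0.666 CPM in ein2-5. How far the differences of such genes grew with glucose cannot be told from these values.

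Among the named genes the difference was more positive with glucose for ERS1 (0.92), ERS2 (0.72), CTR1 (0.57), ICL (2.00), PCK1 (1.15), KAT2 (1.09), SDP1 (1.57), NIA1 (3.27), NIA2 (2.94), NRT2.1 (1.29), PPDK (3.23), TDT (2.47), BXL2 (3.04), THA1 (2.73), BCAT-2 (2.41), EXL2 (1.60), TPS9 (2.00) and ATG8H (0.96).

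It was more negative with glucose for RAV1 (−0.91), ERF2 (−1.57), AT2G36690 (−0.72), EARLI1 (−1.28), PLA2A (−1.20), IOS1 (−1.24), WRKY49 (−1.25), PTR3 (−1.09), RK3 (−1.41), FRK1 (−3.93), CRK13 (−1.81), CRK12 (−2.22), CRK5 (−2.34), CRK6 (−1.91), CRK30 (−2.17), EMB1290 (−1.78), AT4G12490 (−0.97), PCNA2 (−0.61), ELF4 (−0.98), CESA6 (−0.68), NRT2.5 (−2.78), NRT2.6 (−3.31), NRT2.3 (−1.15), ABCG8 (−2.43), RGF9 (−2.80), SUC1 (−1.79), NRPA1 (−1.27), OLI2 (−1.59), FIB2 (−0.97) and HSFA2 (−2.42). limma adjusted p was at most 0.0421 for these genes. The split between upward and downward genes moved with the scaling, and for the sugar starvation genes named here the change began from lower levels in ein2-5 without glucose.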

How the results depend on the processing

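The counts of higher and lower genes stayed within 1.5 times of 5100 and 4080 under other pseudocounts, a filter, TMM, edgeR, DESeq2, the 6 glucose libraries alone and nuclear genes alone, and fell to 2884 and 1611 without the seed-rich libraries ein2-5 +Glc 2 and 3, a fit with fewer samples. Leaving out single libraries gave 4206 to 5233 higher and 2967 to 4484 lower genes, 1025 to 1414 and 537 to 826 at least 2-fold, 793 to 1541 and 1770 to 3429 for the upward and downward difference between conditions, and −1.23 to −1.15 for EIN2. A pseudocount of 5, which shrinks low genes further, left 504 and 365 genes at least 2-fold higher and lower. Upward differences between conditions numbered 1873 with TMM, 1776 with edgeR, 1810 with DESeq2 and 640 without the seed-rich libraries, and downward ones 1343 without those libraries; the cause was not tested. EMB1290, not past the threshold, ranged from −0.14 without ein2-5 +Glc 2 to 0.043 without ein2-5 +Glc 3. Without the seed-rich libraries 16 named genes no longer passed. ETR1 (−0.40), PCNA2 (0.54), LHB1B2 (−0.80), LHCB4.1 (−0.60), FKF1 (−0.87), CESA6 (−0.29), TPS9 (1.00) and WRKY33 (−1.83) kept differences within 1.5 times of those reported, and PCO1 (1.27), ADH1 (0.24) and KOR1 (−0.20) did not; EIN4 and HSFA2 did not pass in DESeq2.

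With the replicate number as a block, limma called 5290 genes higher and 4452 lower, and 1248 and 3136 for the difference between conditions. edgeR with the block, chosen after seeing the data, called 5122 and 4870, with 1762 at least 2-fold higher and 1974 upward differences. Deviations from the group mean of same-numbered Col-0 +Glc and ein2-5 +Glc libraries correlated at 0.283, −0.0096 and 0.311. Col-0 +Glc 1 with ein2-5 +Glc 3 gave −0.353, and Col-0 +Glc 3 with ein2-5 +Glc 1 gave −0.254. Col-0 +Glc 2 correlated best with ein2-5 +Glc 3 (0.044). Libraries 1 and 3 of these groups thus deviated together by number and library 2 did not. Whether a shared batch lies behind this was not tested. Same-numbered ein2-5 libraries without and with glucose correlated at 0.564, 0.125 and 0.425, and these groups enter the difference between conditions, whose counts the block moved by less than 1.5 times. Depth limits genes below 0.179 to 0.262 CPM.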
